A study of Homo sapiens with 12 samples.

Results

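Among the 17013 genes measured in HCC1806 cells, LINC00910, TEX14 and TMEM158 had the strongest response to doxorubicin by the measure given next. They were selected on that response: of all genes they had the largest difference between doxorubicin and vehicle on the variance-stabilized scale, taking for each gene the lower of its responses in the siNT and siMLK4 groups. Their doxorubicin values are therefore a description of the choice and were not tested. Questions that the choice did not use were whether MLK4 knock-down moved these transcripts, whether the genes around them moved, and what they share in sequence and known function.

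HCC1806 is an established human triple-negative breast cancer (TNBC) line. Cells were transfected with non-targeting control siRNA (siNT) or siRNA against MLK4 (siMLK4). They then received vehicle (DMSO in the labels and a figure legend of the study, no treatment in its methods) or 1 μM doxorubicin for 24 h, which gave 4 groups of 3 libraries and 16759025 to 19302248 reads per library. The sample titles mark vehicle libraries with t0 and doxorubicin libraries with t24. This is bulk RNA of 1 cell line. The 3 libraries of a group came from transfections in triplicate that are not said to be separate experiments, so p-values measure the spread between these libraries, which may be technical. In bulk samples, more RNA per cell cannot be told apart from a larger share of cells that make it.

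Doxorubicin is a poison of topoisomerase II, the enzyme that passes DNA strands through each other, and it leaves double-strand breaks. TEX14 (testis expressed 14) is known from germ cells, whose daughter cells stay joined by intercellular bridges: it binds the midbody protein CEP55 and keeps the cell-cutting machinery of abscission away. TMEM158 is a transmembrane protein that was first described as a gene raised during Ras-induced senescence, a lasting arrest of the cell cycle. LINC00910 is a long non-coding RNA of chromosome 17 with no established function.

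The siRNA labels were checked on MAP3K21, the gene of MLK4. It had 553.1, 669.6 and 673.6 normalized reads (reads divided by the library's size factor) in siNT vehicle libraries and 103.2, 94.66 and 88.65 in siMLK4 vehicle libraries. With doxorubicin it had 757.7, 856.1 and 771.6 in siNT cells and 112.8, 138.4 and 94.36 in siMLK4 cells. MAP3K21 fell by 2.24 on the log2 scale with vehicle and by 2.37 with doxorubicin (SE 0.12 each, adjusted p = 9.7e-08 and 1.1e-07 in limma), so the siMLK4 libraries were lower in both treatments, as labelled. Of 12 epithelial and basal markers all 12 were measured, and their summed level was 73925 to 173930 normalized reads per library, with KRT8 the most abundant. Of 12 markers of blood, vessel and stromal cells 6 were measured, summing to 349 to 929 normalized reads, with COL1A1 the most abundant. CD3E, PECAM1, CDH5, COL1A2 and DCN were among those not in the table. Among the receptors that define TNBC, PGR had 0 reads in every vehicle library, ESR1 had a mean of 92.7 normalized reads and ERBB2 of 1459 in siNT vehicle cells.

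All 3 genes lie on the minus strand of GRCh38. LINC00910 (ENSG00000188825) spans 43338741 to 43389226 of chromosome 17 with 27 annotated transcripts. TEX14 (ENSG00000121101) spans 58556678 to 58692055 of the same chromosome with 6 transcripts, and TMEM158 (ENSG00000249992) spans 45224466 to 45226287 of chromosome 3 with 1. Promoter windows from 250 bases before to 50 bases after the start site were taken from RefSeq (GRCh38.p14), where LINC00910 and TMEM158 were matched and TEX14 was not. Gene bodies are those of GENCODE, and the RefSeq start site of LINC00910, 43388898, lies inside its body. RAD51C is shown as well, because it starts 518 bases from TEX14 on the opposite strand and its response is given beside that of TEX14. The capitals mark matches to any of the motifs searched on both strands, which were the TATA box (TATAAA), the CCAAT box (letters as named), the GC box (GGGCGG), the AP-1 site (TGACTCA), the cyclic AMP response element (TGACGTCA), the E-box (CACGTG), the ETS site (CCGGAA) and the p53 half-site. The windows are chr17:43388849-43389148 (minus strand), chr3:45226238-45226537 (minus strand) and chr17:58692323-58692622 (plus strand), in that order.
LINC00910: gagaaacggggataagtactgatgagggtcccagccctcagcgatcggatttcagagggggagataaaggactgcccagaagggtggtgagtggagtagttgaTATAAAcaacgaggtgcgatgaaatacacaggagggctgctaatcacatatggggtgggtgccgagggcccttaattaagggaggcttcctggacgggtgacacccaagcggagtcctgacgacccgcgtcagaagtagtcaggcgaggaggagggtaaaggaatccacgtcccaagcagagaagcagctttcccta
TMEM158: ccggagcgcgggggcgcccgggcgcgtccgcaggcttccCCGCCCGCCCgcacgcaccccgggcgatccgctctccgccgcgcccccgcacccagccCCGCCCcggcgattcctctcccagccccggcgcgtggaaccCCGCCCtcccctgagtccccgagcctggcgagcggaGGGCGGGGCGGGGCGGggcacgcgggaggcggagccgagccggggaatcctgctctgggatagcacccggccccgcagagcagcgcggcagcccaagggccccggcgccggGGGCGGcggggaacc
RAD51C: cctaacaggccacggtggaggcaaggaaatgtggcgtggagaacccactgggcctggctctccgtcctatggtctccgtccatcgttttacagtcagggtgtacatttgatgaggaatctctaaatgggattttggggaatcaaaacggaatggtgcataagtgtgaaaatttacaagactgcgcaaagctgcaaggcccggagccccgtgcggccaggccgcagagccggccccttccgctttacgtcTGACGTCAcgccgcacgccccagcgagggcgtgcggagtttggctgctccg

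The windows were unlike each other. The LINC00910 window was 55% G and C with 13 CpG dinucleotides and held 1 match, a TATAAA that begins 147 bases before the start site, a motif found in 11.6% of all 34943 promoter windows. The TMEM158 window was 82.7% G and C with 46 CpG dinucleotides, against medians of 58.7% and 14 over all windows. It held 8 matches to GGGCGG, several of which overlap each other. GGGCGG was found in 44.9% of all windows. The RAD51C window held 1 match, TGACGTCA, which begins 1 base before the start site and was found in 1.84% of windows. None of the 3 windows held the letters of the CCAAT box, AP-1 site, E-box, ETS site or p53 half-site, which 34.6, 4.96, 7.23, 17.2 and 6.64% of all windows held. The LINC00910 and TMEM158 windows had no searched motif in common, and a match in letters is a description, not a binding site.

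LINC00910 had the most reads of the 3 with doxorubicin. It had 124.5, 148.5 and 172.9 normalized reads in siNT vehicle libraries and 5905, 4734 and 3855 in siNT doxorubicin libraries. In siMLK4 cells it had 252.5, 246.1 and 245.4 with vehicle and 5526, 6613 and 3931 with doxorubicin. Every doxorubicin library was far above every vehicle library. The group means were 149 ± 24.2 and 4831 ± 1029 in siNT cells and 248 ± 3.9 and 5357 ± 1349 in siMLK4 cells (SD, n = 3 each), which is 32.5-fold and 21.6-fold. On the variance-stabilized scale the differences were 4.60 and 4.14 (SE 0.18 each). With doxorubicin, LINC00910 took up to 0.0411% of a library's reads counted in these genes.

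TEX14 was nearly silent without drug. It had 11.74, 8.306 and 16.84 normalized reads in siNT vehicle libraries and 925.6, 972.1 and 492.8 in siNT doxorubicin libraries. In siMLK4 cells it had 33.06, 25.91 and 31.35 with vehicle and 1379, 1811 and 854.7 with doxorubicin. The vehicle and doxorubicin libraries did not overlap, and the doxorubicin libraries spread wider, relative to their mean, than those of LINC00910 and TMEM158. The siNT means were 12.3 ± 4.29 with vehicle and 797 ± 264 with doxorubicin, and the siMLK4 means 30.1 ± 3.74 and 1348 ± 479 (SD, n = 3 each), a 64.8-fold and a 44.8-fold difference. On the variance-stabilized scale these were 3.97 and 4.18 (SE 0.25 each), less than the folds of the means, because that scale compresses differences that start from few reads.

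TMEM158 also had few reads without drug. It had 19.96, 4.153 and 11.23 normalized reads in siNT vehicle libraries and 633.1, 509.0 and 456.3 in siNT doxorubicin libraries. In siMLK4 cells it had 13.02, 16.94 and 14.05 with vehicle and 497.8, 447.8 and 444.6 with doxorubicin. Again no doxorubicin library came near a vehicle library, and the 3 siMLK4 doxorubicin libraries lay close together. The means were 11.8 ± 7.92 and 533 ± 90.8 in siNT cells and 14.7 ± 2.03 and 463 ± 29.8 in siMLK4 cells (SD, n = 3 each), or 45.2-fold and 31.6-fold. The differences on the variance-stabilized scale were 3.53 and 3.21 (SE 0.15 each). The vehicle values of TEX14 and TMEM158 rest on 4 to 33 reads per library, so that counting error is large in those folds.

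**Figure D1:**
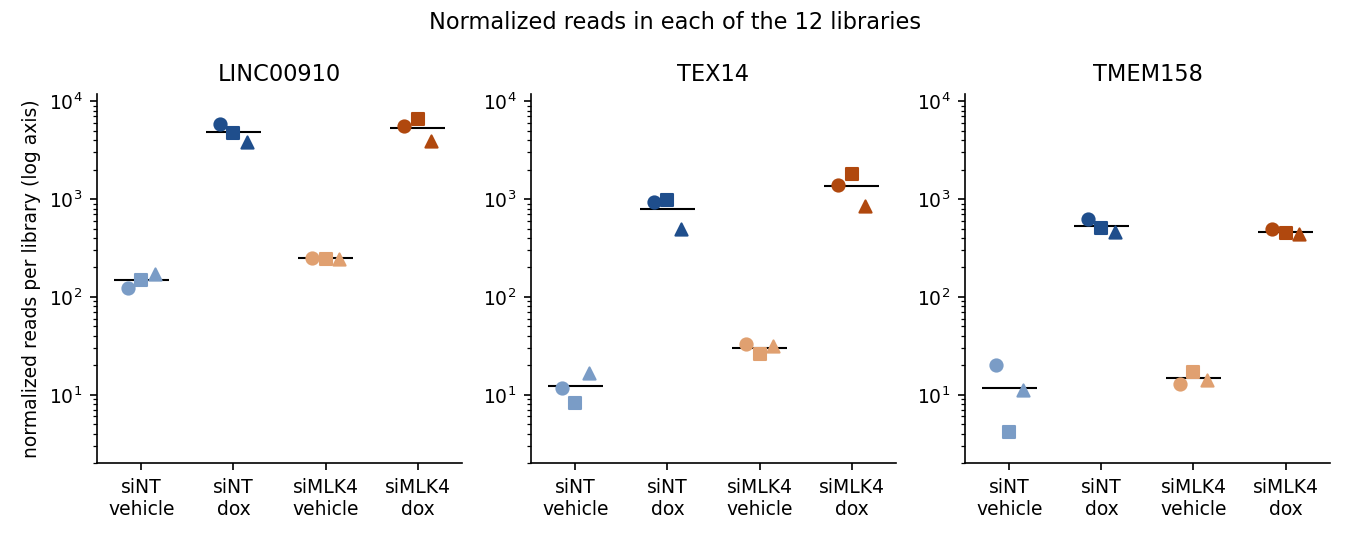
Normalized reads (log axis) of LINC00910, TEX14 and TMEM158 in the 12 libraries, by group; circles, squares and triangles are replicates 1, 2 and 3 and lines are group means. Doxorubicin libraries lay above vehicle libraries without overlap for each gene, and the lowest doxorubicin value in each group was that of replicate 3.

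Replicate 3 was the lowest doxorubicin library of its group for all 3 genes, in siNT and in siMLK4 cells. The same libraries were also lowest for the 1498 other genes called higher in both siRNA groups: their median response was 1.21, 1.17 and 0.99 in siNT replicates 1, 2 and 3, and 1.17, 1.28 and 0.99 in siMLK4 replicates 1, 2 and 3. The part of this difference in the spread of the 3 genes was not tested.

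Levels of different genes were set side by side as normalized reads per kilobase of exon. With vehicle in siNT cells LINC00910 stood at 13.6, TMEM158 at 6.47 and TEX14 at 2.31, which are the 28.7th, 20.1st and 10.7th percentiles of all genes on that per-length scale. With doxorubicin the same order held at 442, 292 and 150, now at the 89.0th, 83.2nd and 70.7th percentiles. In siMLK4 cells with doxorubicin LINC00910 stood at 490, TMEM158 at 254 and TEX14 at 253, so that the latter 2 were level.

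Among all genes 12.1% were called higher with doxorubicin in siNT cells and 12.6% in siMLK4 cells (adjusted p under 0.01 and a difference over 0.75 in limma), and 10.6% were called lower in each. The 3 genes were chosen from the top of that first group, so nothing is read from their own calls. LINC00910 ranked 1st by the response in siNT cells and 2nd in siMLK4 cells, TEX14 2nd and 1st, and TMEM158 4th in each. By the lower of the responses TMEM158, at 3.21, was the last inside the choice, and PBLD, at 2.97 in siMLK4 cells and 2.99 in siNT cells, was the first outside it. CACNA1G, a T-type calcium channel, followed with 3.03 in siNT and 2.96 in siMLK4 cells. After it came ENSG00000279602 (2.94 and 3.11), CCM2L (2.89 and 3.64), the Notch ligand DLL4 (3.28 and 2.82), the thyroid hormone deiodinase DIO3 (2.71 and 2.95) and SHISA2 (2.71 and 2.85). The step at the edge of the choice, from 3.21 to 2.97, was smaller than that between TEX14 (3.97) and TMEM158.

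**Figure D2:**
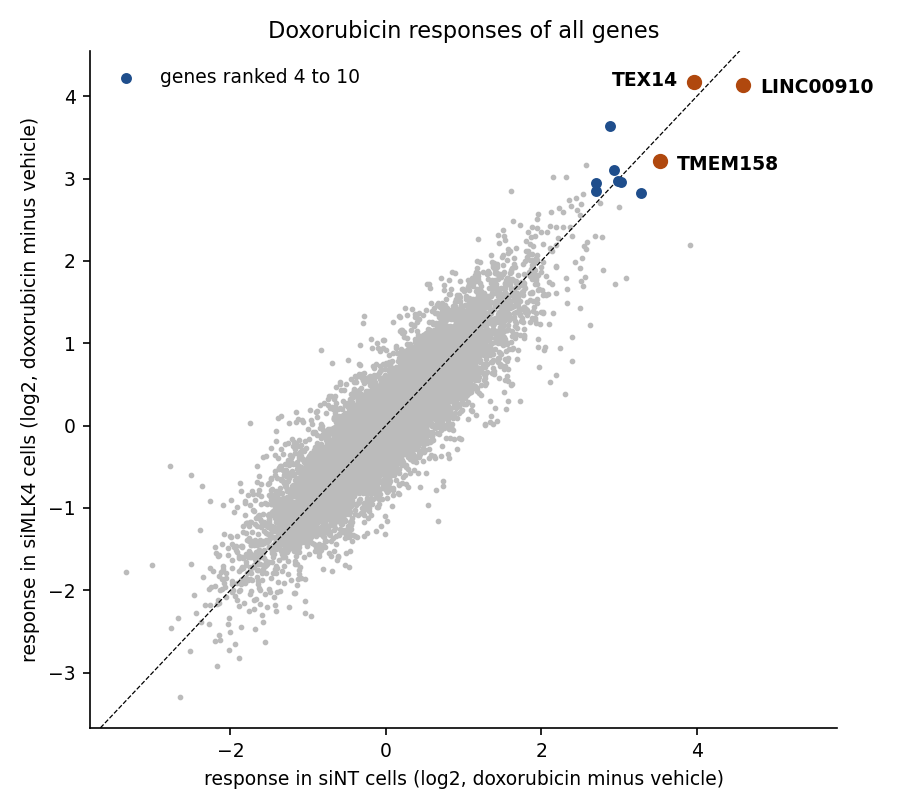
Difference between doxorubicin and vehicle on the variance-stabilized log2 scale for 17013 genes, in siNT cells (x axis) and siMLK4 cells (y axis); the dashed line marks equal responses. LINC00910, TEX14 and TMEM158 (orange) lie at the upper right end, with the genes ranked 4 to 10 by the lower response in blue.

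The order depended on the scale. On log2(normalized reads + 1), which compresses low values less, TEX14 ranked 4th, TMEM158 11th and LINC00910 31st, and CCM2L (7.02 in siNT and 6.96 in siMLK4 cells) was first, followed by IL6 and CXCR4. CCM2L had a mean of 145 normalized reads over the 12 libraries, against 2646 for LINC00910, and at most 1 read in a siNT vehicle library. With a pseudocount of 8 TEX14 ranked 1st, TMEM158 2nd, CCM2L 3rd and LINC00910 4th. Of the 13295 genes that kept a minimum of 10 reads across libraries LINC00910 ranked 1st and PBLD 2nd, while TEX14 and TMEM158 did not pass that filter. LINC00910 had at least 106 reads in each vehicle library, TEX14 and TMEM158 at most 33.

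**Figure D3:**
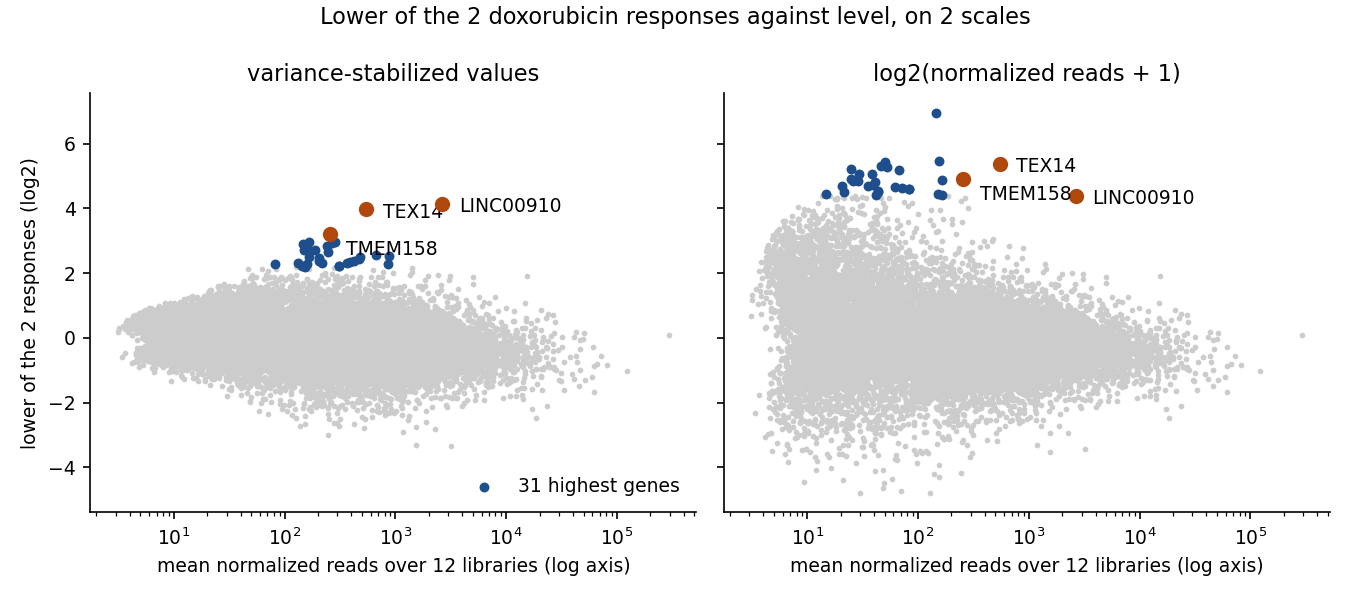
Lower of the responses in siNT and siMLK4 cells (y axis, log2) against mean normalized reads over 12 libraries (x axis, log axis), on the variance-stabilized scale (left) and as log2(normalized reads + 1) (right); blue points are the 31 highest genes of each panel and orange points the 3 chosen genes. On the right LINC00910 is the 31st gene, below low-abundance genes that the left panel places lower.

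MLK4 knock-down could be tested on the 3 genes, because the average difference between siMLK4 and siNT cells over both treatments was not part of the choice. None of the 3 was called, against 4.2% of all genes. TEX14 came nearest: its log2 difference was 0.61 toward siMLK4 cells (SE 0.18, adjusted p = 0.013 in limma), short of both thresholds. LINC00910 differed by 0.37 (SE 0.13, adjusted p = 0.032) and TMEM158 by -0.01 (SE 0.11, adjusted p = 0.93). At an unadjusted p under 0.05 there were 2 of the 3, where 48.2% of all genes passed, and limma-voom called 0.

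With vehicle alone, every siMLK4 library was above every siNT library for LINC00910 and for TEX14, with means 1.67-fold and 2.45-fold higher. The choice used the vehicle values and the doxorubicin values, so the differences within 1 treatment are given without a test. With vehicle they were 0.60 for LINC00910 (SE 0.18) and 0.51 for TEX14 (SE 0.25) on the variance-stabilized scale, and 0.14 for TMEM158 (SE 0.15), whose groups overlapped. On log2(normalized reads + 1) the TEX14 value was 1.27 (SE 0.31) and with library totals on that scale 1.40 (SE 0.31), and that of LINC00910 was 0.75 (SE 0.19) and 0.89 (SE 0.20). Of all genes 5.65% were called in this comparison, and 37% had an unadjusted p under 0.05 in limma. The share of all genes whose libraries did not overlap was not counted. The averaged difference of TEX14 changed with the scale: on log2(normalized reads + 1) it was 1.01 (adjusted p = 0.0022 in limma), past the threshold. More genes were called on that scale, 1883 of 17013 for the averaged difference, against 714 on the variance-stabilized scale.

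With doxorubicin the siMLK4 and siNT libraries overlapped for all 3 genes. By equally numbered pairs, TEX14 was higher in siMLK4 cells in each and TMEM158 lower, while LINC00910 went both ways. TEX14 was 1.69-fold higher in siMLK4 cells, a difference of 0.72 (SE 0.25). That difference ranged over 0.42 to 1.00 with 1 library left out, and was 1.00 without siMLK4 doxorubicin replicate 3, the lowest of its group. LINC00910 differed by 0.14 (SE 0.18) and TMEM158 by -0.17 (SE 0.15). In this comparison 5.58% of all genes were called. The response to doxorubicin in siMLK4 cells minus that in siNT cells was -0.46 for LINC00910 (SE 0.25), 0.20 for TEX14 (SE 0.35) and -0.32 for TMEM158 (SE 0.22). With 1 library left out these values ranged over -0.63 to -0.26, -0.09 to 0.49 and -0.47 to -0.15, in that order. For TEX14 the sign turned on other scales, to -0.51 (SE 0.44) on log2(normalized reads + 1) and -0.18 on + 8. It was -0.56 with library totals and -0.55 with limma-voom. Without siNT doxorubicin replicate 3 the TEX14 value was -0.09, and without siMLK4 doxorubicin replicate 2 it was -0.03. That of TMEM158 was -0.70 (SE 0.51) on log2(normalized reads + 1).

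The genes around the 3 were not used in the choice. They include 1 measured gene inside the body of LINC00910 and 2 inside that of TEX14, on the same strand. Reads of these cannot be told apart from unspliced RNA of the chosen gene. Of 22 measured genes with a body within 250 kb, 4 rose and 2 fell with doxorubicin in siNT cells, and 5 rose and 2 fell in siMLK4 cells, where 12.1 and 12.6% of all genes rose and 10.6% fell in each. The table holds genes whose highest group mean is at least 10.67 normalized reads, and 5 of the 22 (CCDC200, SEPTIN4, PPM1E, IGBP1C and U3) are in it only through their doxorubicin groups. Of the other neighbours 1, which lies inside LINC00910, rose in each siRNA group. Of all 17013 genes 1629 are in the table only through doxorubicin. Without these, 1497 of all genes rose in siNT and 1521 in siMLK4 cells. Around LINC00910, 2 of 10 rose in both. The first was ENSG00000279602, a transcript of the annotation's class TEC, which awaits experimental evidence. It lies at 43360033 to 43361361 on the same strand, inside the LINC00910 body but overlapping 0 of its 50 distinct exons. It had 15.27, 20.76 and 26.94 normalized reads in siNT vehicle libraries and 509.4, 606.7 and 256.5 in siNT doxorubicin libraries. In siMLK4 cells it had 31.06, 19.93 and 21.62 with vehicle and 548.6, 835.5 and 316.6 with doxorubicin. It was 21.8-fold and 23.4-fold higher, with differences of 2.94 and 3.11 (SE 0.29 each, adjusted p = 1.7e-06 and 1.1e-06 in limma), and it is itself the 6th gene in the order above.

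The second was CCDC200, the next gene downstream on the same strand, 33344 bases beyond the end of LINC00910. It had at most 1 read in each vehicle library and 74.75, 68.2 and 35.49 normalized reads in siNT doxorubicin libraries. In siMLK4 doxorubicin libraries it had 39.01, 58.37 and 20.87. Against a floor of 3 reads per library it was at least 16.9-fold higher in siNT and 12.2-fold higher in siMLK4 cells. CCDC200 is in the table only through its doxorubicin groups, so this rise is a description and no p-value is given. Its annotated body holds 13 small nuclear RNA genes, none of them in the table. TMEM106A fell in siNT cells, by 0.85 on the log2 scale (adjusted p = 7.1e-05), and it differed by -0.50 in siMLK4 cells. The TMEM106A call was lost without siNT doxorubicin replicate 2 (-0.75, adjusted p = 0.00063, at the size threshold).

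Around TEX14 the nearest gene outside its body did not pass the test. RAD51C, a gene of homologous recombination that starts 518 bases from TEX14 and is read in the other direction, had 580.1, 503.5 and 437.8 normalized reads in siNT vehicle libraries and 518.6, 533.4 and 578.9 in siNT doxorubicin libraries. In siMLK4 cells it had 516.0, 528.1 and 615.1 with vehicle and 665.6, 542.0 and 723.1 with doxorubicin. Vehicle and doxorubicin libraries overlapped, and the differences were 0.10 and 0.20 (SE 0.13 each, adjusted p = 0.53 and 0.20 in limma).

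SEPTIN4, a septin that lies 12310 bases beyond the end of TEX14 on the same strand, rose. It had 7.046, 6.229 and 8.981 normalized reads in siNT vehicle and 49.83, 60.06 and 20.28 in siNT doxorubicin libraries. In siMLK4 cells it had 6.011, 7.971 and 10.81 with vehicle and 60.21, 108.4 and 40.83 with doxorubicin. The differences were 0.93 and 1.29 (SE 0.21 each), at levels far below TEX14. SEPTIN4 is in the table only through its doxorubicin groups, so these values are a description and no p-value is given. Without siNT doxorubicin replicate 2 the siNT value of SEPTIN4 was 0.78 and no longer called. PPM1E, a protein phosphatase 63799 bases upstream on the opposite strand, rose by 0.92 and 1.28. In siNT cells the value was 0.61 without siNT vehicle replicate 2 and 0.78 without siNT doxorubicin replicate 2, neither called. PPM1E too is in the table only through doxorubicin, so its values are a description. MTMR4, further downstream than SEPTIN4, fell by 0.97 in siNT and 0.77 in siMLK4 cells (adjusted p = 0.00014 and 0.0009), and the siMLK4 value was -0.66, -0.70 and -0.64, under the size threshold, without siMLK4 vehicle replicate 1, siMLK4 vehicle replicate 2 or siMLK4 doxorubicin replicate 3. The U3 small nucleolar RNA copy inside the TEX14 body had at most 6 reads per vehicle library. It is likewise in the table only through doxorubicin, and rose by 1.09 in siMLK4 cells and differed by 0.48 in siNT cells, given without a test. IGBP1C, which shares the start region of TEX14, was not called in either (0.68 and 0.33), at few reads. In siNT cells it had at most 1 read per vehicle library. Its siNT mean of 8.22 normalized reads with doxorubicin was at least 2.33-fold over the floor of 3 reads per library. In siMLK4 cells the IGBP1C means were 5.47 and 12.6, or 2.3-fold, all given without a test. TSPOAP1 fell in siMLK4 cells, by 0.93 (adjusted p = 1.8e-05 in limma), and differed by -0.72 in siNT cells (adjusted p = 0.00016), under the size threshold alone. Its means with vehicle and doxorubicin were 30.8 and 7.51 normalized reads in siNT cells and 57.6 and 14.1 in siMLK4 cells. These are nearly equal folds of 0.244 and 0.245.

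Around TMEM158 none of 4 measured neighbours was called in either siRNA group. The largest difference was that of EXOSC7, an exosome subunit, at -0.66 and -0.62 (adjusted p = 0.0031 and 0.0045 in limma, under the size threshold). CDCP1, the closest measured gene at 78044 bases, differed by -0.11 and 0.21 (adjusted p = 0.61 and 0.30). LARS2 differed by 0.28 and 0.26 and ZDHHC3 by -0.02 and 0.05.

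**Figure D4:**
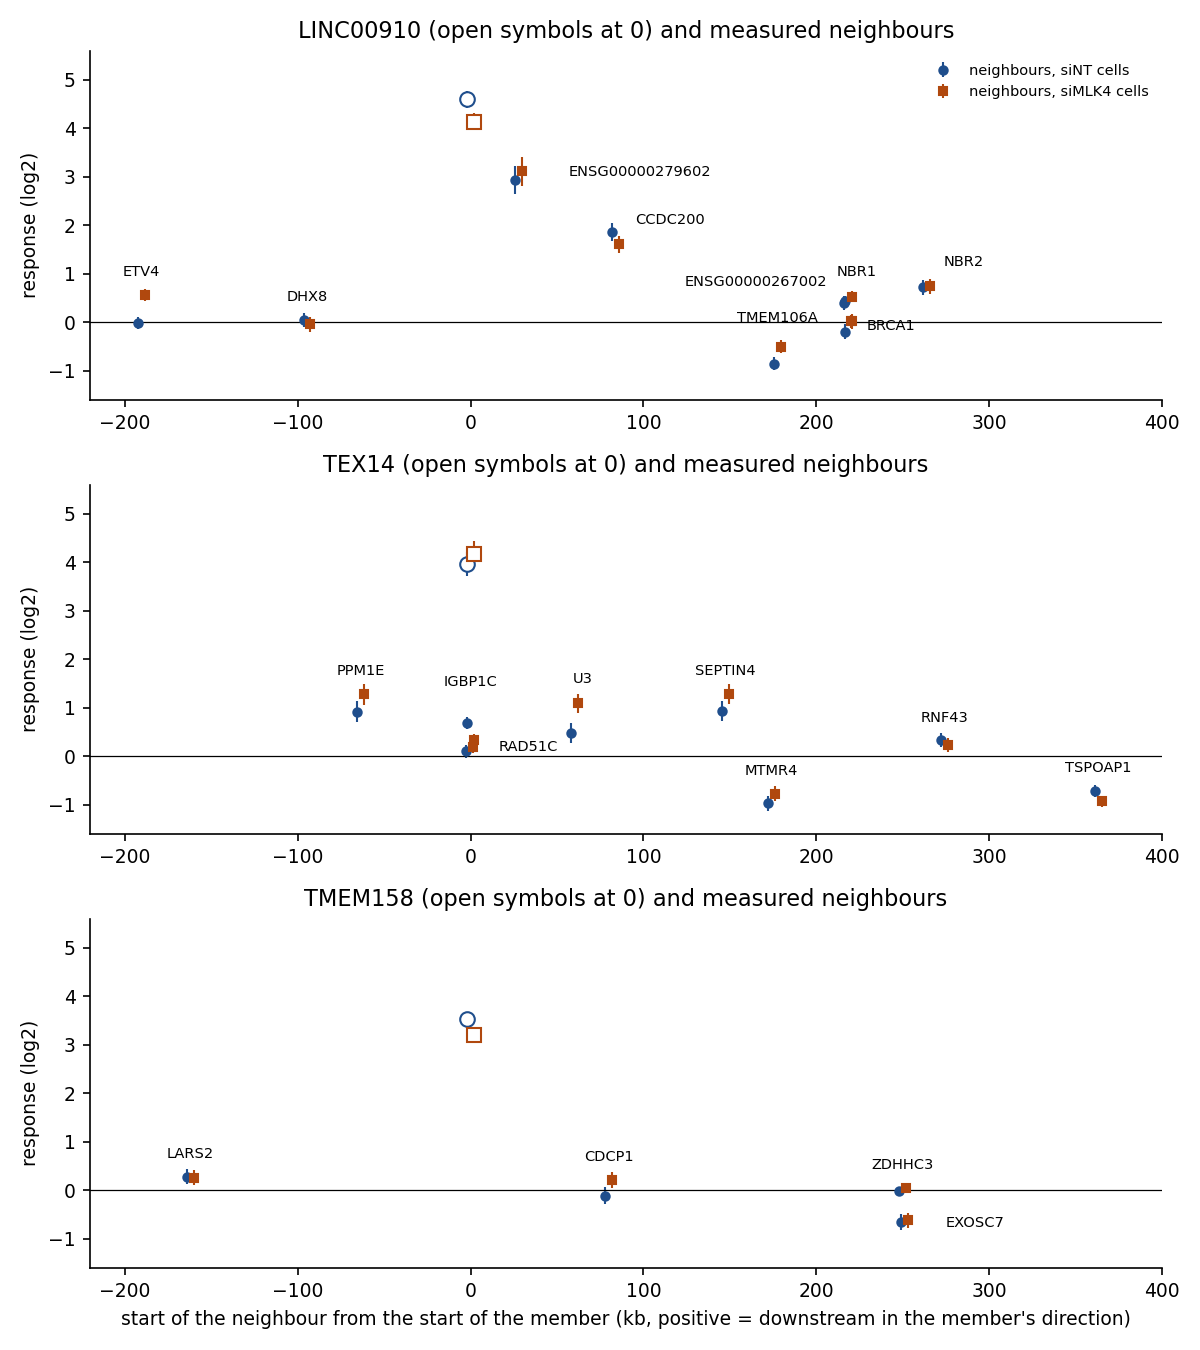
Doxorubicin response on the variance-stabilized log2 scale (y axis, points with SE, n = 3 per group) of measured neighbours (1 not shown) against the distance of their start from the start of the chosen gene (x axis, kb, positive in its direction of transcription), in siNT (blue circles) and siMLK4 cells (orange squares), drawn slightly apart. Open symbols are the chosen genes; ENSG00000279602 and CCDC200 follow LINC00910, SEPTIN4 lies beyond TEX14, and of the TMEM158 neighbours EXOSC7 lies lowest, at -0.66 and -0.62.

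Reads were counted by strand, so antisense partners are kept apart, but near-identical sequence could still move reads between genes. Of the 50-base words in LINC00910 transcripts 9.12% occur in transcripts of other genes, mostly in the antisense ENSG00000288909 and in copies of the U2 small nuclear RNA. Of those in TEX14 4.57% do, in SEPTIN4-AS1 and IGBP1C, and of those in TMEM158 and ENSG00000279602 0% do. Of those in CCDC200 5.45% are shared, mostly with TMEM106A on the other strand.

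Across the 12 libraries, the genes whose variance-stabilized values were most alike (Pearson's r, genes with a mean of at least 50 normalized reads) were also higher with doxorubicin. For LINC00910 these were PBLD (0.996), USP11 (0.995), PRR5L (0.994), CACNA1G (0.994) and GBX2 (0.993). For TEX14 they were RHBDL3 (0.998), ENSG00000287642 (0.996), LRRC37A3 (0.996), C2orf92 (0.995) and TCHH (0.995). For TMEM158 they were PPP2R3C (0.997), RCBTB2 (0.995), MAP3K4-AS1 (0.994), THUMPD3-AS1 (0.993) and PANK2 (0.993). The libraries fall into vehicle and doxorubicin, so any gene with a steady response scores high: of 12379 genes compared, 531 had r over 0.95 with LINC00910, 566 with TEX14 and 449 with TMEM158.

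Genes of the processes in which TEX14 is known were looked at as lists. Of 42 measured genes of the midbody, the ESCRT machinery and abscission, 3 rose and 5 fell in siNT cells and 3 rose and 2 fell in siMLK4 cells, beside 12.1 and 12.6% of all genes called higher and 10.6% lower. The median difference was -0.28 and -0.15, where all genes had medians of 0.00 and 0.02. CEP55, the binding partner of TEX14, differed by -0.06 and 0.25 and was not called, and neither were PDCD6IP (ALIX) and TSG101, which CEP55 recruits. CHMP1B, an ESCRT-III subunit, rose by 1.25 and 1.01, SEPTIN11 by 1.02 and 0.95, and ZFYVE19, a regulator of the abscission checkpoint, by 0.95 and 0.94 (adjusted p at most 0.00018 in limma). CHMP6 fell by 1.84 and 1.29 and CHMP2A by 0.86 and 0.96, other ESCRT-III subunits. The siNT value of CHMP2A was -0.69, under the size threshold, without siNT vehicle replicate 1.

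Of 59 germ cell genes 19 were measured, and of these 2 rose and 2 fell in siNT cells and 5 rose and 1 fell in siMLK4 cells, with medians of 0.05 and 0.04, beside 12.1 and 12.6% of all genes called higher and 10.6% lower. Of the 19, 6 passed the filter on low values only through their doxorubicin groups, and without them 1 rose in siNT and 2 in siMLK4 cells. Without such genes 1497 and 1521 of all genes rose. MEIOC, a meiosis-specific coiled-coil protein, rose most, by 1.65 and 2.03 (adjusted p = 2.1e-07 and 5.5e-08 in limma). Its means were 81.7 with vehicle and 357 with doxorubicin in siNT cells, and 128 and 676 in siMLK4 cells. SOHLH2, a germ cell transcription factor, fell by 0.99 and 0.92 (adjusted p = 0.00041 and 0.0007). The other 11 of 19 were called in neither group.

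For TMEM158, 46 of 55 genes of senescence and its secretory phenotype were measured. In siNT cells 10 rose and 5 fell, in siMLK4 cells 13 rose and 2 fell, beside 12.1 and 12.6% of all genes called higher and 10.6% lower. In both groups 9 rose, and of all 17013 genes 1501. IL6 passed the filter on low values only through doxorubicin, and without it 9 rose in siNT and 12 in siMLK4 cells. Beside these stand 1497 and 1521 of all genes, likewise without those kept only through doxorubicin. Medians were 0.15 and 0.21. IL6, a cytokine of the secretory phenotype, rose by 3.92 and 2.20, with means of 2.63 (vehicle) and 500 (doxorubicin) in siNT cells and 1.75 and 110 in siMLK4 cells, in normalized reads. CDKN1A, the p21 inhibitor of cell cycle kinases, rose by 1.06 and 1.69, ICAM1 by 1.63 and 0.95 and CXCL8 by 0.96 and 1.39 (adjusted p = 0.0063 and 0.00045 for CXCL8 in limma). CXCL8 means were 760 normalized reads with vehicle and 1464 with doxorubicin in siNT cells, and 111 and 378 in siMLK4 cells. The CXCL8 call in siNT cells was lost without siNT vehicle replicate 2 (0.70, adjusted p = 0.039), siNT vehicle replicate 3 or any 1 of the siNT doxorubicin libraries (0.92 to 1.01, adjusted p = 0.015 to 0.023), and on log2(normalized reads + 1) (1.01, adjusted p = 0.011) and + 8 (1.00, adjusted p = 0.01). HMGB1, a chromatin protein that senescent cells lose, fell by 0.95 and 0.92 (-0.71 and -0.73 with library totals, under the size threshold).

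LINC00910 was set beside 49 measured long non-coding RNAs of known interest. In siNT cells 8 rose and 4 fell, and in siMLK4 cells 3 rose and 4 fell, with medians of 0.15 and -0.11, beside all-gene shares of 12.1 and 12.6% higher and 10.6% lower. Without 3 that passed the filter only through doxorubicin, DINOL among them, 7 rose in siNT and 2 in siMLK4 cells. Of all genes 1497 and 1521 rose when such genes were left out. HOTAIR, a transcript of the HOXC cluster, rose by 1.89 and 1.39 and HCP5 by 1.48 and 1.00. DINOL, a transcript that overlaps CDKN1A on the other strand, had 0 reads in every vehicle library and means of 32.4 and 21.5 normalized reads with doxorubicin, at least 9.2-fold and 6.64-fold over the floor of 3 reads per library. DANCR, H19 and SNHG16 fell in both groups, by 1.55, 1.47 and 1.38 in siNT cells and 1.70, 1.26 and 1.21 in siMLK4 cells.

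Markers of cell identity were counted in the same way. Of the 12 epithelial markers 6 fell and 0 rose in each siRNA group, with medians of -0.73 and -0.71, where 10.6% of all genes fell in each. KRT5 fell by 1.24 and 2.20, TP63 by 1.60 and 1.58, KRT14 by 1.26 and 1.47 and KRT6A by 1.36 and 1.20. Of the 6 measured markers of other cell types LUM fell in both, by 1.56 and 2.05, and PTPRC rose in siMLK4 cells, by 0.84, with means of 1.75 and 17.9 normalized reads, and differed by 0.59 in siNT cells without a call. Of the 3 receptor markers 1 rose in each siRNA group, beside 12.1 and 12.6% of all genes, and 1 fell in siMLK4 cells. PGR and PTPRC passed the filter on low values only through doxorubicin. ESR1 fell by 0.78 in siMLK4 cells (adjusted p = 0.0014 in limma) and differed by -0.61 in siNT cells, and ERBB2 was not called. PGR rose, with 0 reads in vehicle libraries and means of 13.3 and 11.7 normalized reads with doxorubicin. The part of these changes in the values of the 3 genes was not tested.

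**Figure D5:**
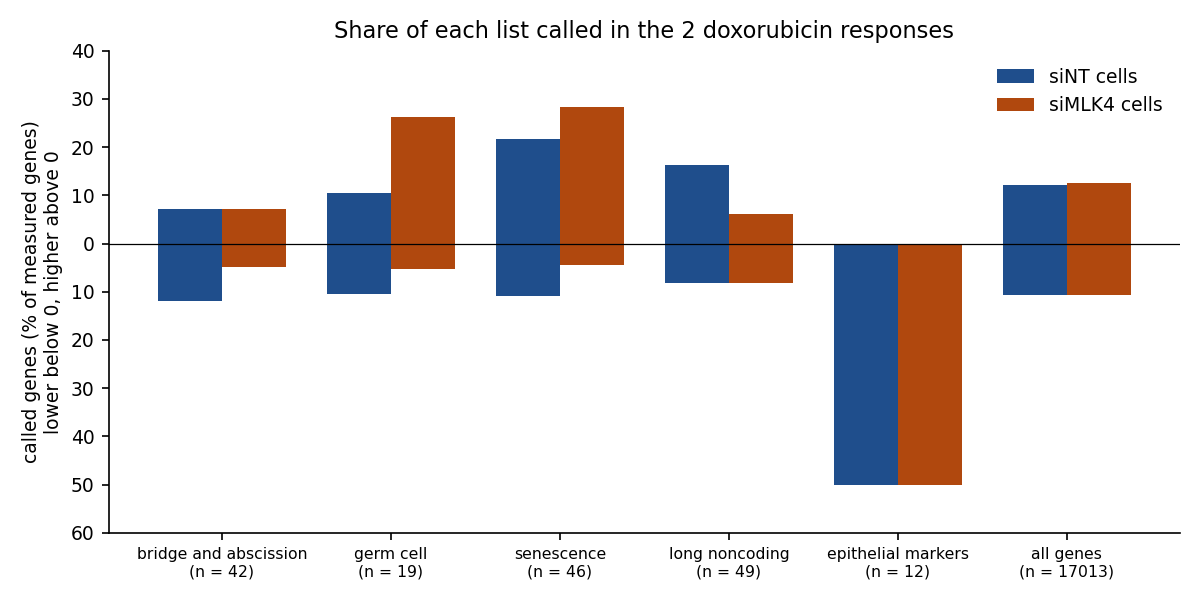
Share of the measured genes of each list called higher (above 0) or lower (below 0) with doxorubicin, in percent, in siNT (blue) and siMLK4 cells (orange), with all genes on the right. Of 12 epithelial markers 6 were called lower and 0 higher in each group, and of 42 abscission genes 3 were called higher.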

How the data were processed

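HCC1806 mRNA-seq libraries (12, 3 per group) were analysed from 1 table, with groups taken from the sample labels. Per the submitters' processing notes and the study's methods, the authors trimmed reads (Trimmomatic 0.39), mapped them with HISAT2, counted them per gene by strand (HTSeq 0.6.0) and used DESeq2 1.26.0. The notes name hg19 and the methods GRCh38, and the table holds gene IDs alone, so coordinates are those of GENCODE release 44 (GRCh38). The deposited values are variance-stabilized values on a log2 scale. Inverting the transformation gave whole reads for 100% of values (tolerance 0.05). Of 17013 genes, 16957 were annotated. Bounds against a floor of 3 reads cover counting error only.

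Comparisons used limma 3.58.1 in R 4.3.3 (variance trend, 12 libraries, 4 group means), with Benjamini-Hochberg adjustment over all genes; called genes had an adjusted p under 0.01 and a difference over 0.75. The code was tested on simulated data. Equally numbered libraries deviated together (r over 0.1 in 3 pairs) between the siRNA groups with doxorubicin (0.19, 0.52, 0.56) and between treatments in siNT cells (0.46, 0.11, 0.20), not otherwise; this pairing is read from the values. The descriptions of siMLK4 doxorubicin replicates 2 and 3 carry the same index, but their values differ. Alternatives were other scales, library totals (with log2 of reads + 1), filters, limma-voom, a replicate block and leaving out each library.

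The 3 genes, lists and rules were chosen with earlier results of these data known. Named were the 3 genes, MAP3K21, RAD51C, ranks 4 to 10, neighbours within 250 kb, the 5 most alike genes and up to 4 genes per list and direction called in both siRNA groups. IL6 and CXCR4 in the order of ranks, CEP55, PDCD6IP, TSG101, ESR1, ERBB2 and PTPRC were named after their values were seen. Motifs were searched in RefSeq promoter windows. The values of 1 neighbour of LINC00910 and 1 cell marker are not reported here.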

Additional observations from a re-analysis of the deposited data

Results flagged for a closer look

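Among 47 genes examined for this, namely the measured neighbours, up to 4 genes per list and direction called in both siRNA groups and MAP3K21, the responses in siNT and siMLK4 cells differed for 3 by the test of the difference itself (limma, adjusted p under 0.05 over all genes, which 1.2% of all genes passed). For IL6 the response in siMLK4 cells was lower by 1.72 (a difference of -1.72). IL6 passed the filter on low values only through doxorubicin and had at most 4 reads in a vehicle library. It is counted among the 3, but its value is a description and no p-value is given. For ICAM1 the difference was -0.68 (adjusted p = 0.042, and 0.05 with the replicate block). For KRT5 it was -0.96 (adjusted p = 0.047), a stronger fall in siMLK4 cells. Genes of the same lists that were not called in both siRNA groups were looked at after their values were seen, and they passed this test in both directions. In the senescence list, which holds IL6 and ICAM1, the difference was -1.30 for PLAT (adjusted p = 0.0073 in limma) and -0.68 for BTG2 (0.042), but 1.78 for VEGFA (0.033) and 0.84 for SERPINE2 (0.047). In the other lists it was 0.87 for PLK1 (0.012), 0.65 for SEPTIN9 (0.03), -0.84 for MIR100HG (0.018) and -0.93 for MIR34AHG (0.028). Groups of 3 libraries were not searched for outlying samples.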

How the results depend on the processing

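Called genes numbered 714 for the averaged siRNA difference, 961 for that with vehicle and 950 for that with doxorubicin. With log2(normalized reads + 1) they were 1883, 1613 and 1381. With library totals, which were taken on the same log2 scale with 1 added and so differ from the main values in scale and scaling, they were 2114, 1841 and 1451. With log2(normalized reads + 8) they were 1489, 1611 and 1484, and with limma-voom 1840, 1483 and 1466. With only the groups compared the vehicle count was 611. Library totals moved the median of all genes to 0.15, 0.16 and 0.12 in these comparisons and to 0.24 and 0.21 in the doxorubicin responses of siNT and siMLK4 cells. The share of called genes that were higher was 38, 44.4 and 47.6%, with log2(normalized reads + 1) 58, 55.5 and 49.7%, and with library totals 72.5, 73.8 and 62.2%. In the doxorubicin responses it was 53.4 and 54.4%, then 57.1 and 55.6%, then 73.4 and 68.7%, and under the filter of 10 reads 42.7 and 44.3%. Genes called higher in siNT cells, 2060, were then 3192, 4198 and 1253, and in siMLK4 cells, 2147, were 3075, 3929 and 1290. For the averaged and the vehicle difference it was 54.5 and 55.5% with log2(normalized reads + 8), and 57% for the averaged difference with limma-voom. The cause was not tested.

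Genes called for the difference between the doxorubicin responses numbered 47 and, with limma-voom, 29. Leaving out 1 library gave 0 to 37 of them, with 0 without siMLK4 doxorubicin replicate 1, 6, 8 and 13 without siNT doxorubicin replicates 2, 1 and 3, 11 and 16 without siMLK4 vehicle replicates 1 and 2, 12 and 28 without siNT vehicle replicates 1 and 3, and 16 without siMLK4 doxorubicin replicate 2. The other counts ranged over 682 to 771 (averaged siRNA difference), 929 to 1016 (vehicle), 761 to 1121 (doxorubicin), 3602 to 4186 (doxorubicin response in siNT cells) and 3508 to 4419 (in siMLK4 cells).

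The ranks of LINC00910, TEX14 and TMEM158 were 31, 4 and 11 with log2(normalized reads + 1), 4, 1 and 2 with log2(normalized reads + 8) and 30, 4 and 11 with library totals on log2 with 1 added, nearly those of that scale alone. With 1 library left out LINC00910 and TEX14 ranked 1 to 2 and TMEM158 ranked 3, the change coming without siNT doxorubicin replicate 3. The mean of the responses gave the same ranks. TEX14 and TMEM158 have no value under the filter of 10 reads.

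The averaged siRNA difference of TMEM158 turned from -0.01 to 0.27 with library totals, 0.16 and 0.04 with log2(normalized reads + 1) and + 8, and 0.19 with limma-voom, none of them called, and ranged over -0.10 to 0.06 with 1 library left out. Its difference with vehicle ranged over -0.02 to 0.30, and that of LINC00910 with doxorubicin over -0.03 to 0.34. TEX14 passed the threshold averaged with library totals (1.12), with log2(normalized reads + 8) (0.84) and without siMLK4 doxorubicin replicate 3 (0.75). With the first 2 of these settings 2114 and 1489 of all genes were called. Under library totals CHMP2A in siNT cells (-0.63), HMGB1 (-0.71 and -0.73) and MTMR4 in siMLK4 cells (-0.63) were no longer called.

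With the replicate block the counts were 715, 951, 945, 3854, 3937 and 40, and it changed no call for LINC00910, TEX14 or TMEM158 (averaged siRNA difference of TEX14 0.61, adjusted p = 0.011 in limma). The difference of IL6 was -1.72 with the block and -1.99 without siMLK4 doxorubicin replicate 3. These IL6 values are a description, because IL6 passed the filter on low values only through doxorubicin. With the block the difference of ICAM1 (-0.68) was at adjusted p = 0.05 in limma.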
